A study of Mus musculus with 10 samples.

Results

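The promoter H3K27me3 peaks described here are 2052 of the 41159 broad peaks (4.99%) that ChIP-seq gave in mouse embryonic stem cells. A peak was taken when it overlapped, by at least 1 bp, a peak of an independent CUT&RUN sample and also came within 1 kb of the 5′ end of a gene, upstream or downstream. The members were thus chosen by the positions of called peaks in both assays. H3K27me3 is trimethylation of lysine 27 of histone H3. ChIP-seq recovers it from sheared, fixed chromatin with an antibody, and CUT&RUN recovers it from intact nuclei by antibody-directed cleavage. The CUT&RUN list held 66242 peaks. Peaks were placed against the 32968 genes of the deposited count table that lie at 1 place in the genome, and 1791 of these (5.43%) had at least 1 shared promoter peak. Both assays chose the members, so their overlap and their closeness to a 5′ end are not results. All coordinates are mm10.

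The data come from 3 kinds of sample. RNA was sequenced with auxin (2 libraries) and without auxin (2 libraries), each 12 h after cells synchronized in G1 were let go on. ChIP-seq was 1 sample without auxin labelled 6 h, and CUT&RUN was 1 control sample labelled 12 h. All samples came from NPM1AID cells, E14 embryonic stem cells in which the histone chaperone NPM1 carries a degron, so that adding auxin destroys the protein. All were grown with leukemia inhibitory factor, 1 µM PD0325901, which inhibits MEK1/2, and 3 µM CHIR99021, which inhibits GSK3. Per the file headers, the RNA came from a line numbered as 1 clone. The chromatin samples with auxin, with auxin and a PRC2 inhibitor, and the input and IgG controls were not analysed here, so no H3K27me3 level was compared between conditions. The series asks whether repressed domains are passed on through S phase when NPM1 is lost.

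Polycomb repressive complex 2 (PRC2) places H3K27me3, and Polycomb repressive complex 1 (PRC1) holds CBX proteins that bind it. In embryonic stem cells the mark is known for lying over promoters of developmental regulators that are silent or nearly silent in these cells. Many of those promoters are CpG islands, stretches rich in the dinucleotide CG and mostly free of DNA methylation. Cells kept with both kinase inhibitors are known to carry a more diffuse H3K27me3 pattern with less at such promoters than cells kept in serum.

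A set of 5 promoters is printed because it shows the range of CpG content and of peak position among the members. Each runs from 250 bases before to 50 bases after the gene start of RefSeq (GRCm38.p6, the mm10 assembly), is given 5′ to 3′ on the gene's strand, and has every CG dinucleotide in capitals. Gata2 (chr6:88193641-88193940, plus strand) and Cdx2 (chr5:147307200-147307499, minus strand) had their shared peak within 1 kb but no base of the printed stretch under it. Pdlim4 (chr11:54068968-54069267, minus strand) had 52 of its 300 bases under a shared peak, and Esrrb (chr12:86360867-86361166, plus strand) had 37. Sox6 (chr7:116038695-116038994, minus strand) had all 300 bases under one. Gata2 held 32 CpG, Cdx2 18, Pdlim4 31, Sox6 11 and Esrrb 7.
Gata2: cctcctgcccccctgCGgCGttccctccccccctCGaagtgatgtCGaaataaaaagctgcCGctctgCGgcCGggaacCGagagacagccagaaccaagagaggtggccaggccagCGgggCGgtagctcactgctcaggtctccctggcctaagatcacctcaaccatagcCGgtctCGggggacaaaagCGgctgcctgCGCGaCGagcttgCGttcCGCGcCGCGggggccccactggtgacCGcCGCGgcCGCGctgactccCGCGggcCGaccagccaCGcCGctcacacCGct
Cdx2: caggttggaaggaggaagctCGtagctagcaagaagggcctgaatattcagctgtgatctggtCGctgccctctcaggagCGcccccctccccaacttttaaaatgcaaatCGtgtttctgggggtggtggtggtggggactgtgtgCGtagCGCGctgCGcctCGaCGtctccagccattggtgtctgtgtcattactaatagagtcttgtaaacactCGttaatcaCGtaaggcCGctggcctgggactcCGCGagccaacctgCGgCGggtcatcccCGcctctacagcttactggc
Pdlim4: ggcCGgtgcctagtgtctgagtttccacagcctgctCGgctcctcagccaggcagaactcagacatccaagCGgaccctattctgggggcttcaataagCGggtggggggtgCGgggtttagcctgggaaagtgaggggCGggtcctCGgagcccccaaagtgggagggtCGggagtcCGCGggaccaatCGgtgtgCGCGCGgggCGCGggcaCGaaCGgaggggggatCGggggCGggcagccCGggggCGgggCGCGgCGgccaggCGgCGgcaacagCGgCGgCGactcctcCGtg
Sox6: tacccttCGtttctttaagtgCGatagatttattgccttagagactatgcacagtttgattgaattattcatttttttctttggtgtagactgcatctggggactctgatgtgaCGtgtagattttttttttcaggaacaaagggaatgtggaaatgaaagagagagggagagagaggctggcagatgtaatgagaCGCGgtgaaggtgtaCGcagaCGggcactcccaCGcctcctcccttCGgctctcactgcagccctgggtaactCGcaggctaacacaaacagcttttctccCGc
Esrrb: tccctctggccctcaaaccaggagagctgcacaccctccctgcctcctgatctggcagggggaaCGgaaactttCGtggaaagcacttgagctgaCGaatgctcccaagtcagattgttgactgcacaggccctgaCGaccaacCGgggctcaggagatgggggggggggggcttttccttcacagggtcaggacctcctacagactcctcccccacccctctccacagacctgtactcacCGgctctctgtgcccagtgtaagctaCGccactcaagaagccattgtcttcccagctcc

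MicroRNA genes were among the members too. Of the 1791 genes, 45 carried a microRNA name, and mature sequences were matched for 20 of them by symbol in the RefSeq table. Those of the Hox clusters are printed with Mir9-3, a neural microRNA gene, in lower case with the seed (bases 2 to 8) in capitals. Mir10a (chr11, ChIP-seq fold enrichment 4.30) and Mir10b (chr2, 3.45) lie in different Hox clusters and share a seed. Mir196a-2 (chr15, 3.61) lies in a further Hox cluster and has a different seed, as has Mir9-3 (chr7, 4.05). Polyadenylated RNA does not measure mature microRNAs, so no RNA value is given for these 4.
mmu-miR-10a-5p: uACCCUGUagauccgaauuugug
mmu-miR-10b-5p: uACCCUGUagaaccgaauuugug
mmu-miR-196a-5p: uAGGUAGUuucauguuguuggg
mmu-miR-9-5p: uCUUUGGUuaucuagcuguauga

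The shared promoter peaks were wider than the other peaks of the same list. Their median width was 635.5 bp (quartiles 413 and 1044 bp, range 289 to 6836 bp), against 498 bp for the 19354 shared peaks outside promoter windows. It was 446 bp for the 1517 promoter peaks without a CUT&RUN peak and 445 bp over all 41159. A width of at least 2 kb was reached by 107 of the 2052 (5.21%), against 1.27% of all peaks. A wider peak has more chance of touching a window or another peak, so the rule itself bears on these widths and they are given as a description. Fold enrichment, the authors' own value per peak, had a median of 3.44 (range 1.61 to 5.66) against 3.29 over all peaks. CUT&RUN peaks covered 1111 of the 2052 (54.1%) completely, and 485 were covered over less than 50% of their length. The overlapping CUT&RUN peaks were broader, with a median of 2730 bp.

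Several of the strongest and widest members sat at genes of neurons and of extracellular matrix. The highest ChIP-seq fold was 5.66, in an 810 bp peak at Emid1 (chr11:5150522-5151331), which encodes a secreted protein of the EMI domain family. Next was a peak of 5.49 at Gabbr2 (chr4:46990739-46991170), a subunit of the metabotropic GABA receptor, followed by Gm26168 with 5.47, Actrt2 with 5.30 and the potassium channel gene Kcnh6 with 5.12. The widest member spanned 6836 bp at Ncan (chr8:70114011-70120846), the gene of the brain proteoglycan neurocan, and CUT&RUN covered 45.2% of it. Cilp2, a cartilage matrix gene, had 6342 bp. The peak shared by Gm13441 and Lamc3, a laminin chain gene, had 5137 bp and that at Gm25837 4675 bp. Highest in CUT&RUN fold were the partners of members at Cd83 (4.86), Frem3 (4.85) and Fam163a (4.78). Among the 5 genes with the highest ChIP-seq fold, the highest RNA value in any of the 4 libraries was 1.07 CPM, at Emid1, where CPM is counts per 1000000 counts of the scaled library.

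Genes shared peaks, and peaks clustered. There were 1915 members with 1 gene in reach, 127 with 2 genes, and 10 with 3 or more. The most genes, 6, were at a 631 bp peak within the HoxA cluster (chr6:52246763-52247393), which reached Hoxa11, a homeobox gene of limb and reproductive tract, and 5 pieces of its antisense RNA annotated as HOXA11-AS1. A neighbouring peak (chr6:52245987-52246327) reached 4 of these, and a peak at Six3, a homeobox gene of forebrain and eye, reached 4 entries. In the other direction, 358 genes had 2 members and 28 had 3. The 2052 members fell on 1746 CUT&RUN peaks, and 288 of those held 2 or more members. One CUT&RUN peak of 6113 bp at 1110002E22Rik and Gm5105 held 4 members, as did one of 5491 bp at AI849053, AW047730 and Gm3764. Those with 3 members included peaks at Myod1, the muscle determination factor, Hmx2, Foxf2, Nptx1, Gal and Mir9-3. So what ChIP-seq reported as separate peaks was in places 1 continuous CUT&RUN peak.

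The rule has an edge of 1 kb from a gene's 5′ end. Just inside it was a Frem3 peak (chr8:80612080-80612808) that reached its window by 1 bp, although another member of the same gene lay fully inside. Just outside was a peak near Pax6 (chr2:105667014-105667899), 1001 bp from the 5′ end, although Pax6 had 2 members of its own. At most 100 bp lay in the window for 148 members, and 123 shared peaks ended within 100 bp of a window. The smallest overlap of a member with CUT&RUN peaks was 3 bp.

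Most members lay beside the 5′ end, not over it. Only 510 of the 1791 genes (28.5%) had their 5′ end inside a shared peak, and 496 of the 2052 peaks (24.2%) covered one. There were 2205 pairs of a member and a gene. In 1003 of the 1695 pairs without cover the peak lay downstream, into the gene, and in 692 it lay upstream. The centre of the peak was downstream in 57.7% of all pairs, at a median of 204.5 bp.

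**Figure D1:**
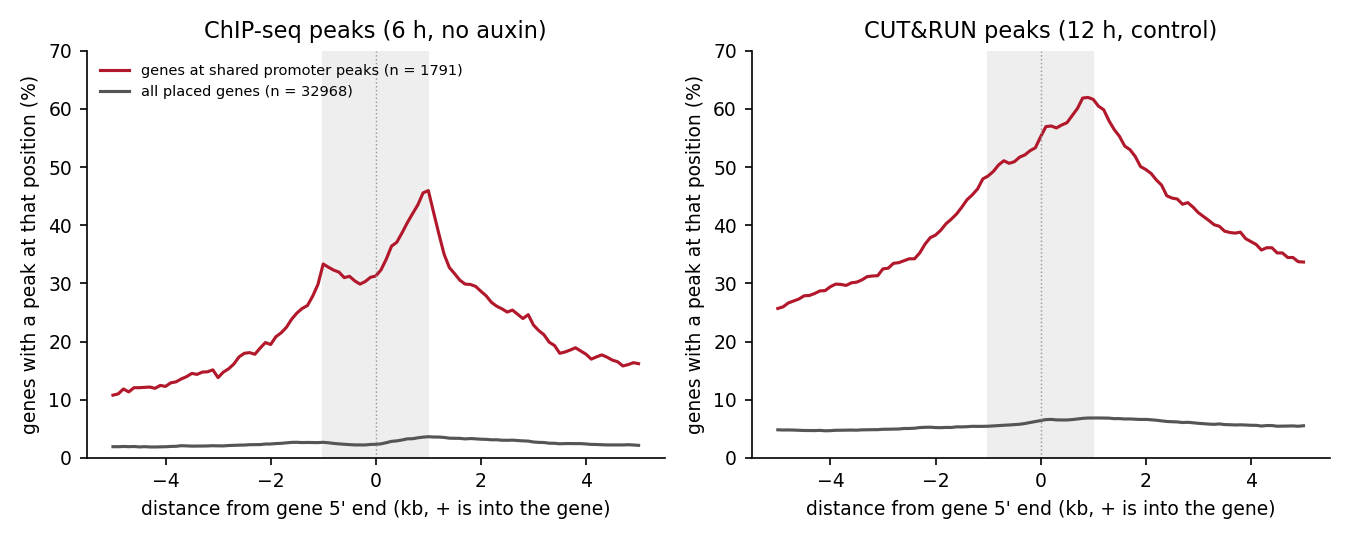
Percentage of genes with a ChIP-seq peak (left) or a CUT&RUN peak (right) at each distance in kb from the 5′ end, for the 1791 genes at shared promoter peaks (red) and all 32968 placed genes (grey); the shaded band is the window of the rule. ChIP-seq coverage of the red line was 31.3% at the 5′ end, 33.3% at 1 kb upstream and 46.0% at 1 kb downstream, while CUT&RUN coverage was 55.2%, 48.5% and 61.6% at the same places.

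The profile over distance had its ChIP-seq maxima at both borders of the window, where the rule admits any peak that touches it. Over all placed genes, to which the rule was not applied, ChIP-seq coverage was 2.32% at the 5′ end, 2.67% at 1 kb upstream and 3.63% at 1 kb downstream. The higher coverage on the downstream side was thus present with and without the rule. CUT&RUN coverage over all placed genes was 6.41% at the 5′ end, 5.44% upstream and 6.85% downstream.

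CpG content was measured on the 300-base RefSeq promoters like those printed above. Only 1069 of the 1791 genes (59.7%) had a promoter in the table by symbol, so a check over all member genes is void. The values instead describe the table's own promoters, of which 1240 started within 1 kb of a shared peak. Promoters of chromosome 18 were not used here. The 1240 promoters held a median of 13 CpG, against 7 over all 32851 promoters. Their GC content was 59.3%, against 52.7%. The CpG observed over expected ratio, which corrects for base content, had a median of 0.51, against 0.38. Promoters without any CpG made up 0.73% of the 1240 and 5.43% of all. Those near a ChIP-seq peak but no member (1960) had a median of 7 CpG and a ratio of 0.34. Those near a CUT&RUN peak alone (2967) had 6 CpG and a ratio of 0.31.

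Shared peaks overlapped a smaller share of CpG-rich starts than of other starts. The 762 promoters with the shared peak outside the 300 bases had a median of 15 CpG and a ratio of 0.59, and the 478 overlapped by it had 9 CpG and 0.39. A promoter was called CpG-rich at a ratio of at least 0.6 with a GC content of at least 55%, which 469 of the 1240 (37.8%) met, against 30.3% of all promoters. The shared peak overlapped the 300 bases in 121 of the 469 CpG-rich promoters (25.8%) and in 357 of the 771 others (46.3%). At CpG-rich starts, ChIP-seq peaks covered 20.5% of promoters at the start itself, 40.5% at 1 kb upstream and 59.1% at 1 kb downstream. At the others, coverage was 41.5% at the start, 28.4% upstream and 37.9% downstream. At CpG-rich starts, CUT&RUN peaks covered 39.7% at the start, 49.0% at 1 kb upstream and 60.1% at 1 kb downstream. Both distances are borders of the window, where the rule itself raises coverage. At 2 kb upstream of CpG-rich starts, coverage was 23.9% in ChIP-seq and 39.9% in CUT&RUN, near that at the start. At 2 kb downstream it was 34.3% and 53.7%, above that at the start. At the others, CUT&RUN covered 63.4% at the start, 49.5% at 1 kb upstream and 60.6% at 1 kb downstream. Each assay was 1 sample and neighbouring promoters share peaks, so no test was made.

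**Figure D2:**
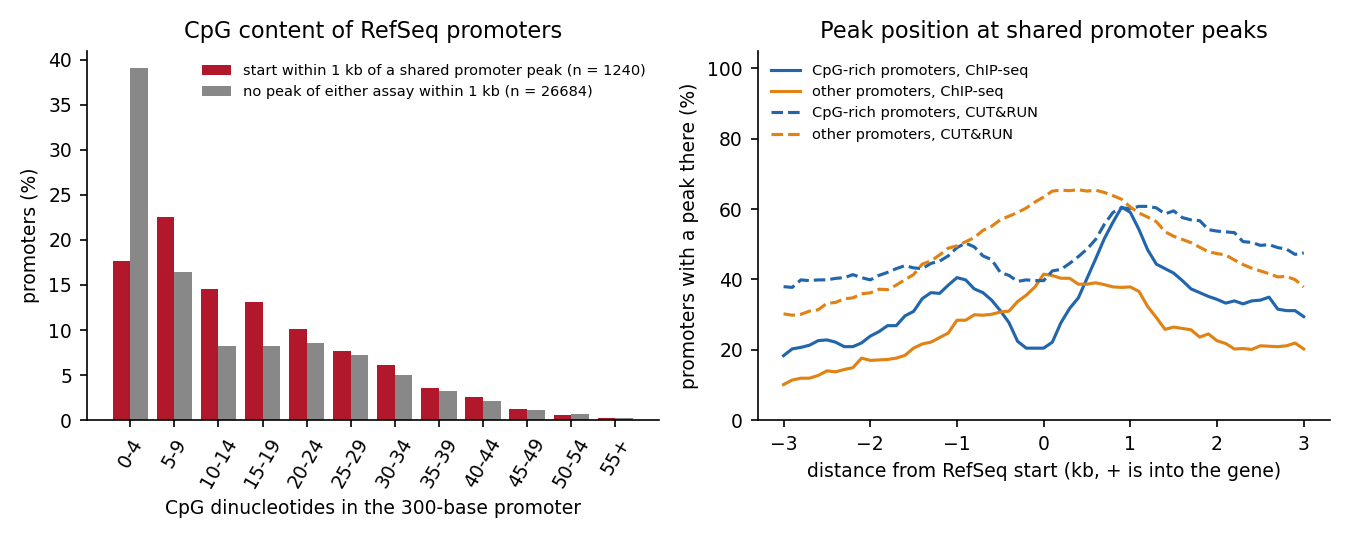
Left, percentage of RefSeq promoters by number of CpG in 300 bases, for starts within 1 kb of a shared peak (red) and starts with no peak of either assay within 1 kb (grey); right, percentage of promoters at shared peaks with a peak of each assay at each distance in kb from the start, for CpG-rich (blue) and other promoters (orange), with ChIP-seq solid and CUT&RUN dashed. Promoters with under 5 CpG were 17.7% of the red set and 39.0% of the grey one. The blue lines are lower at the start than at the window borders, 1 kb either side, where the rule itself raises coverage.

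Short sequences searched on both strands gave small differences in frequency. GGGCGG, the core of the GC box, was in 48.0% of the 1240 promoters at shared peaks and 35.7% of all, and it contains a CG itself. TATAAA was in 10.2% and 13.6%, and CCAAT in 29.2% and 37.4%. GCGTG was in 36.1% and 32.4%, and CACGTG, the E-box letters, in 8.31% and 7.15%. A match describes letters in a window and shows no binding.

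The members were spread over the autosomes and nearly missing from the X chromosome. Chromosomes 2 and 11 held 219 members each. Of the genes on each chromosome, the share with a member was highest on chromosomes 15 (8.56%), 11 (7.73%) and 8 (7.70%) and lowest among autosomes on chromosome 14 (2.44%). On the X, 1 of 1452 placed genes had a member. This scarcity was not limited to promoters, since the X held 49 of all 41159 ChIP-seq peaks (0.119%) and 236 of the 66242 CUT&RUN peaks but 4.40% of the placed genes. Neither list had a peak on the Y.

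Genes at shared promoter peaks carried little RNA. No read was found in any of the 4 libraries for 573 of the 1791 (32.0%), against 39.9% of all placed genes. Among protein-coding genes it was 214 of 1301 at members (16.4%) and 3871 of the other 18167 (21.3%). Genes without any read were thus not more frequent at members. Without auxin, 81.1% were under 1 CPM, against 61.9% of all placed genes, and 3.74% were at or above 10 CPM, against 26.8%. Among the 1301 protein-coding genes at members, 75.2% were under 1 CPM, compared with 39.5% of the other 18167. The share was higher with a peak over the 5′ end than with one beside it, a difference that was not tested. Of the 357 protein-coding genes with the 5′ end inside a member, 82.6% were under 1 CPM, and of the 944 with it outside, 72.5%.

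**Figure D3:**
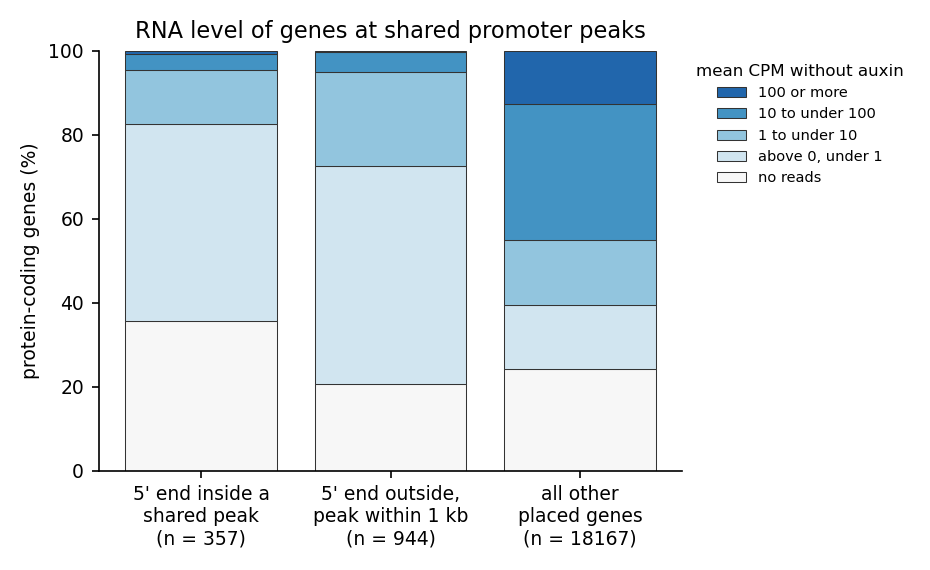
Percentage of protein-coding genes in 5 classes of mean CPM without auxin (2 libraries), for genes whose 5′ end lay inside a shared promoter peak, genes with the 5′ end outside and a shared peak within 1 kb, and all other placed genes. Genes without reads in these libraries were 35.6%, 20.6% and 24.2% of the 3 sets, and genes at 100 CPM or more were 0.84%, 0.21% and 12.6%.

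A few members lay at well expressed genes. Per kb of exon without auxin, the highest was Esrrb, a nuclear receptor of the naive pluripotency network, at 179 CPM per kb, followed by mmu-mir-6240 (50.1), Galnt6 (37.8), Gnl2 (27.7) and Gse1 (21.2). The entry mmu-mir-6240 is only 117 bases long, its counts do not measure a mature microRNA, and its level not divided by length was 4.79 and 2.85 CPM with auxin, against 5.69 and 6.03 CPM without auxin. Esrrb had 2 members, the stronger a 289 bp peak (chr12:86361394-86361682) centred 421 bp into the gene. Its RNA was at 843 and 796 CPM with auxin, against 1113 and 1057 CPM without auxin. The log2 fold change was -0.40 (SE 0.05, adjusted p = 0.00026 in edgeR's quasi-likelihood test), and the groups did not overlap. Gse1, whose protein is found with histone deacetylase complexes, had 167 and 191 CPM with auxin, against 163 and 180 CPM without auxin, and these ranges overlap. Galnt6, an enzyme of O-linked glycosylation, had 156 and 174 CPM with auxin, against 144 and 149 CPM without auxin, with an adjusted p of 0.062 in edgeR. Gnl2, a nucleolar GTPase gene, had 89.9 and 91.2 CPM with auxin, against 100.6 and 104 CPM without auxin (adjusted p = 0.051).

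The RNA libraries held 13353446 and 16046290 counts with auxin and 14789851 and 15183126 counts without auxin. All 12 embryonic stem cell markers listed were above 1 CPM in both groups. Their sum was 7805 and 7670 CPM with auxin, against 8357 and 8235 CPM without auxin, and 7 of the 12 were called lower and 2 higher with auxin (edgeR). Over all tested genes, 13.0% were called higher and 14.5% lower. The lowest of the 12, Utf1, was at 146 CPM without auxin. Of tested genes without a member and at a mean of 87.6 CPM or more, 40.6% were called lower. Other cell types were near the floor or low. The 8 fibroblast markers summed to 11.7 and 11.3 CPM with auxin, against 8.57 and 8.27 CPM without auxin, with Postn at 0 and 1 of the 8 called higher. The 7 primitive endoderm markers summed to 24.8 and 27.7 CPM with auxin, against 15.5 and 17.97 CPM without auxin, and 2 of the 7 were called higher. The 7 trophectoderm markers summed to 137 and 148 CPM with auxin, against 127 and 139 CPM without auxin, with Elf5 at 0, 3 of the 7 called higher and 1 lower. Fewer or more cells of a type and a change of RNA per cell cannot be told apart in bulk samples, and the part of these markers in the results was not tested. Npm1 RNA was at 843 and 767 CPM with auxin, against 1058 and 951 CPM without auxin. The degron acts on the protein, so that RNA does not check the labels.

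With auxin, more of the tested genes at shared promoter peaks rose than fell. Of 493 that passed the filter on low counts, 93 rose (18.9%), 20 fell (4.06%) and 380 passed neither way at an adjusted p under 0.05 (edgeR). Over all 13522 tested genes, percent called was 13.0 for higher and 14.5 for lower. The share lower varied strongly with level, as given by bins below. The median log2 fold change was 0.29 for the 493 and 0.01 over all placed tested genes, and 348 of the 493 (70.6%) were above 0, against 51.7%. A change of more than 1 on the log2 scale was called in 60 of the rises and 6 of the falls. DESeq2 called 39 rises and 13 falls, so the count of rises depends on the method. It also changed with which library was left out, and not for auxin library 2 alone. The median was 0.45 without no-auxin library 2, 0.36 without auxin library 1, 0.24 without no-auxin library 1 and 0.21 without auxin library 2.

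The filter and the level of expression both bear on this count. It left out 1298 of the 1791 genes. Of the 493, 366 passed it in both groups, 90 in the libraries with auxin alone and 14 in those without auxin alone. A gene admitted by 1 group alone tends to be higher there, so the count was repeated on the 366, a comparison chosen after seeing the data: 67 rose (18.3%) and 19 fell (5.19%), with a median of 0.21. Of the 12273 other genes that passed in both groups, 12.7% rose and 15.6% fell, with a median of -0.00. The 1298 genes left out summed to 117 and 132 CPM with auxin, against 87.2 and 109 CPM without auxin. Reads of any number were found for 988 and 1057 of the 1791 genes with auxin, against 949 and 976 without auxin. Auxin library 2, with the highest number, was also the deepest, but auxin library 1, with 988, was the shallowest. The part of depth in these numbers was not tested.

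**Figure D4:**
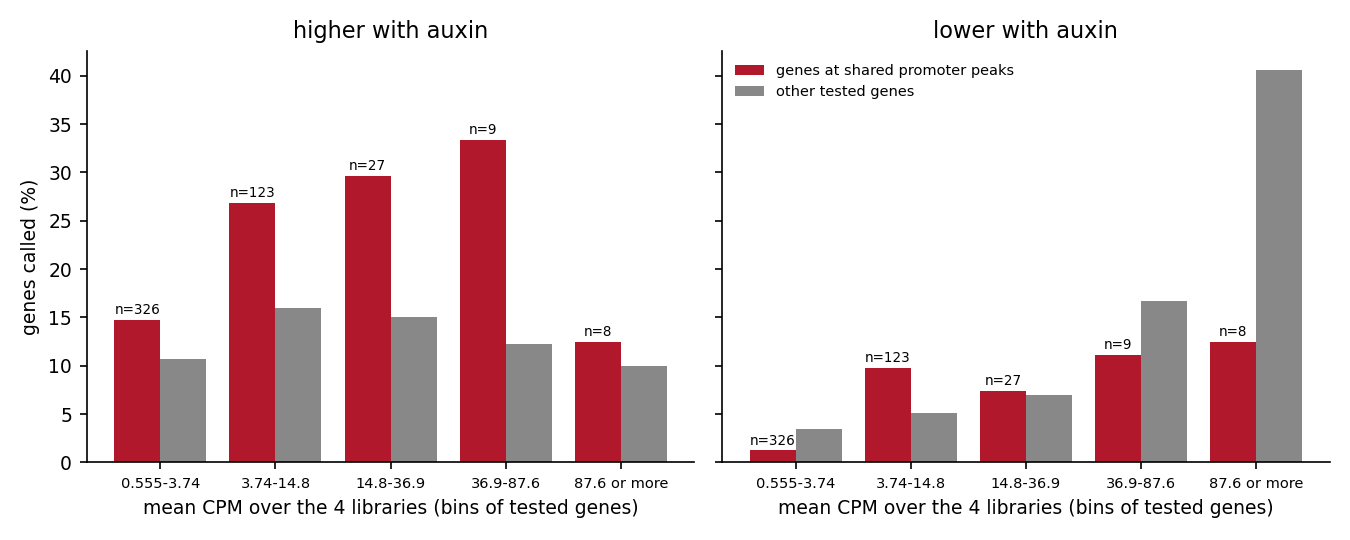
Percentage of tested genes called higher (left) or lower (right) with auxin in 5 equal bins of mean CPM over the 4 libraries, for genes at shared promoter peaks (red, with their number) and other tested genes (grey). In the lowest bin 14.7% of the red and 10.7% of the grey genes were higher, and in the next bin 26.8% and 15.9%; the last 2 bins hold 9 and 8 red genes.

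Genes of similar level were compared in 5 equal bins. Most of the 493 lay in the lowest bin of tested genes, where 48 of 326 rose and 4 fell, and their log2 fold changes had a median of 0.36. The other 2379 genes of that bin had a median of 0.20, with 254 higher and 82 lower. The gap was smaller among genes admitted by both groups, a comparison also chosen after seeing the data. Among genes of the lowest bin that passed it in both groups, the median was 0.21 for the 199 at members, of which 22 rose and 3 fell (11.1% and 1.51%), and 0.17 for the 1625 others, of which 9.48% rose and 2.89% fell. In the second bin, 33 of 123 rose and 12 fell with a median of 0.27, against a median of 0.12 for the other 2581, of which 411 rose and 133 fell. In the middle bin, 8 of 27 rose (29.6%) and 2 fell (7.41%), against 15.0% higher and 6.95% lower of the other 2677. Falls were thus not scarcer than among other genes in the second bin, where 9.76% of the members' genes and 5.15% of the others were lower. Among other genes the share lower was 3.45% in the lowest bin, but 16.7% and 40.6% in the last 2. Those 2 bins held only 9 and 8 genes at members. The 14.5% lower over all tested genes and the 15.6% over others admitted by both groups are therefore not matched for level.

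Counts were also split by how the peak lay at the gene, and the differences between these splits were not tested. They cover all tested genes, those admitted by 1 group alone included. With the 5′ end inside a member, 13 of 93 tested genes rose and 2 fell, with a median log2 fold change of 0.14. With it outside, 80 of 400 rose and 18 fell, with a median of 0.34. Genes with 2 or more members had 18 of 97 higher and 3 lower, with a median of 0.46, and those with 1 member 75 of 396 higher and 17 lower, with a median of 0.28. The upper tercile of genes by ChIP-seq fold had 29 of 165 higher and 4 lower, and the lower tercile 34 of 157 higher and 6 lower. Width gave a similar picture, with 34 of 187 higher in the widest tercile and 32 of 167 in the narrowest. Genes with a promoter peak but no member had values near those of the members. Where no CUT&RUN peak overlapped the ChIP-seq promoter peak, 97 of 441 rose and 22 fell, with a median of 0.24. A CUT&RUN peak elsewhere in the window was not excluded there. Where CUT&RUN alone gave one, 87 of 522 rose and 37 fell, with a median of 0.18. Genes with no promoter peak had 1481 of 12060 higher and 1885 lower, with a median of -0.00.

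The 10 largest rises among members with non-overlapping libraries included 8 genes under 2 CPM in every library, among them Tbx5. Of the 10, 9 passed the filter on low counts in the libraries with auxin alone, the group where they are high, so they had to differ and their fitted changes are given as a description. The exception was Col9a2, a chain of the cartilage collagen IX, at 32.9 and 37.8 CPM with auxin, against 7.94 and 8.81 CPM without auxin. It rose by 2.08 (SE 0.12, adjusted p = 9.9e-07 in edgeR) and kept the call without any 1 library. Pdlim4, an actin-linked PDZ and LIM protein gene with 3 members, was at 1.11 and 1.25 CPM with auxin, against 0.140 and 0.203 CPM without auxin. Mal, a myelin and lymphocyte membrane protein gene, was at 4.42 and 3.27 CPM with auxin, against 0.843 and 0.339 CPM without auxin. DESeq2 gave no adjusted p, and so no call, for Pdlim4, Sez6l, Slc6a17, Cntnap1, 9530082P21Rik, 4933431E20Rik and 6430571L13Rik. The fitted log2 fold changes were 2.72 for Pdlim4 and 2.68 for Mal. Sez6l, a neuronal membrane protein gene, had 2.71, Slc6a17, a vesicular amino acid transporter gene of neurons, 2.50, and Cntnap1, of the axon's paranodal junction, 1.94. The 3 entries known by clone names had 2.06 (9530082P21Rik), 2.03 (4933431E20Rik) and 1.95 (6430571L13Rik). The calls of these 6 were lost when a library was left out, with adjusted p of 0.0560 (Sez6l), 0.1285 (Slc6a17), 0.0731 (9530082P21Rik), 0.0880 (4933431E20Rik) and 0.127 (6430571L13Rik) without no-auxin library 2. Without no-auxin library 1 they were 0.115 for Sez6l and 0.207 for Cntnap1, without auxin library 2 0.0546 for Cntnap1, and 6430571L13Rik lost its call without any 1 of the 4 (0.0867 to 0.129).

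Of the 10 largest falls, 9 were of genes that passed the filter in both groups. Dab1, the adaptor of the reelin pathway, was at 3.39 and 3.33 CPM with auxin, against 10.4 and 9.63 CPM without auxin, and fell by 1.57 (SE 0.17, adjusted p = 0.0001 in edgeR). Esrp1, an epithelial splicing regulator, fell by 1.36, with an adjusted p of 0.0513 in DESeq2. Lck, the kinase of T cell receptor signalling, fell by 1.19 and had its 5′ end inside the peak. It was at 4.94 and 3.68 CPM with auxin, against 10.6 and 8.88 CPM without auxin. Zmat4 fell by 1.11, and Ptger4, a prostaglandin E2 receptor, by 1.02. Slc16a3, a lactate exporter, fell by 0.89, and Podxl, a sialomucin of pluripotent cells and podocytes, by 0.87. Myrf, a myelin regulatory factor, fell by 0.98, with adjusted p of 0.0805 without auxin library 1, 0.0537 without no-auxin library 1 and 0.102 in DESeq2. Zbtb16, a zinc finger repressor, fell by 0.95, with 0.113 in DESeq2. Nxph4, a neurexin-binding neuropeptide-like gene, had the largest fitted fall (-1.63), at 0.369 and 0.297 CPM with auxin, against 0.913 and 1.15 CPM without auxin. DESeq2 gave no adjusted p, and so no call, for Nxph4. It passed the filter in the libraries without auxin alone, where it is high, and its call was lost without any 1 of the 4 libraries (0.0646 to 0.180).

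**Figure D5:**
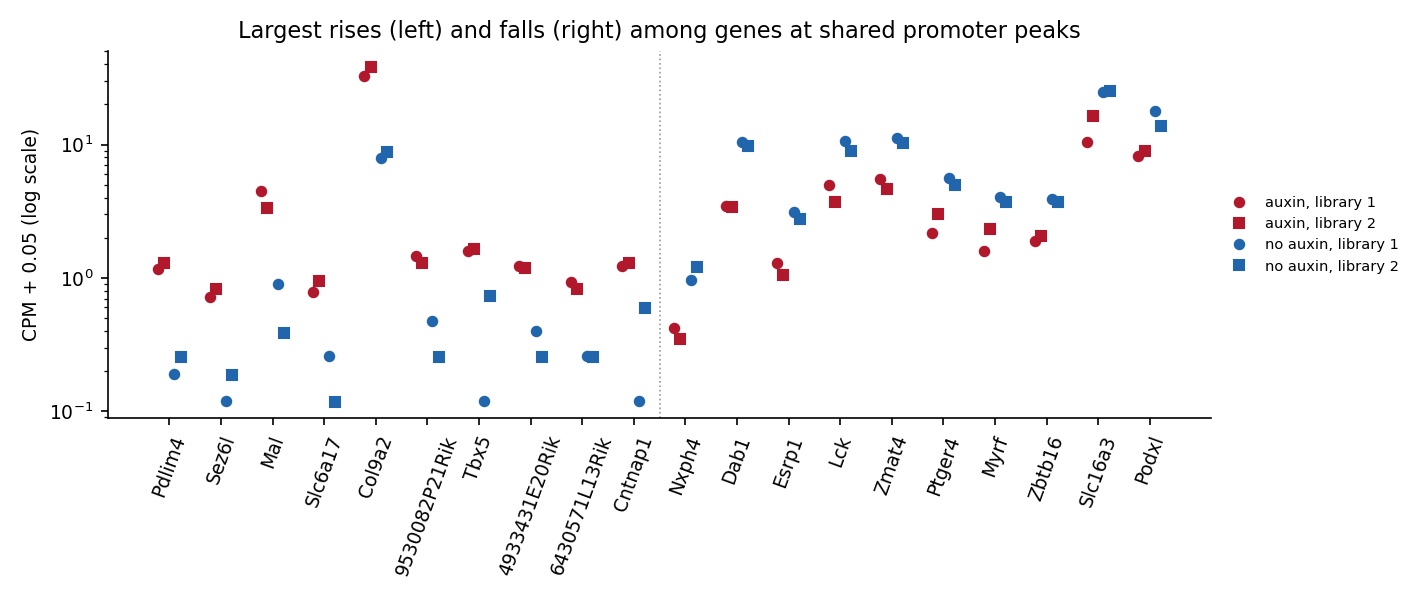
CPM plus 0.05 on a log scale in the 2 libraries with auxin (red) and the 2 without auxin (blue), for the 10 genes at shared promoter peaks with the largest rises (left of the dotted line) and the 10 with the largest falls. Within each gene the red points all lie above the blue ones on the left and below them on the right, which the choice of genes fixes, and 9 of the 10 genes on the left reached less than 5 CPM in any library.

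Hox genes pattern the body axis and limbs. Of 38 placed, 16 had a shared promoter peak (42.1%), 15 of these were under 1 CPM without auxin, and 5 passed the filter. Beside the edgeR calls in this and the later lists stand the 13.0% higher and 14.5% lower over all tested genes. Hoxd9 was at 2.36 and 2.97 CPM with auxin, against 0.773 and 1.15 CPM without auxin, and rose by 1.47 (SE 0.33, adjusted p = 0.0065 in edgeR, 0.0568 in DESeq2). Hoxc11 rose by 1.10 and lost the call without auxin library 2 (0.0821) and without no-auxin library 1 (0.231). Hoxb4 rose by 1.23 and lost the call without auxin library 2 (0.517), no-auxin library 1 (0.110) or no-auxin library 2 (0.113), and both lost it in DESeq2 (0.185 for Hoxc11, 0.252 for Hoxb4). DESeq2 called 0 of the 5 in either direction. Hoxc8 had 0.737 and 2.02 CPM with auxin, against 0.702 and 0.881 CPM without auxin, and did not pass. Of the 18 tested Hox genes without a member, 7 rose and 0 fell in edgeR (11 and 0 at an unadjusted p under 0.05, and 3 and 0 in DESeq2), so the rise was not limited to those with a member.

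Other homeobox genes, which specify many tissues, had a member at 43 of 107, with 17 tested, 2 higher and 0 lower in edgeR. The share higher is near the 13.0% over all tested genes. At an unadjusted p under 0.05 the counts were 5 and 0, and DESeq2 called 1 and 0. Cdx2, a regulator of trophectoderm and hindgut, was at 10.8 and 10.99 CPM with auxin, against 4.00 and 4.95 CPM without auxin, and rose by 1.28 (SE 0.17, adjusted p = 0.00032 in edgeR). Its 560 bp peak (chr5:147306387-147306946) was centred 603.5 bp into the gene, beyond the printed promoter. Gsc, a gene of the organizer and prechordal plate, was at 3.24 and 3.801 CPM with auxin, against 1.76 and 1.29 CPM without auxin, and rose by 1.22, with an adjusted p of 0.0617 in DESeq2. Pitx1, a hindlimb gene, was at 0.811 and 3.09 CPM with auxin, against 0.562 and 0.881 CPM without auxin, and the groups overlap. The median over the 17 was 0.46 on the log2 scale. Of the 43 tested genes of this list without a member, 11 rose and 4 fell in edgeR, with a median of 0.26. Rises were thus not limited to those with a member here either.

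All 4 tested T-box genes with a member rose in edgeR, and 2 of them in DESeq2. Tbx15, a gene of skeletal and fat cell development, was at 4.20 and 6.59 CPM with auxin, against 2.04 and 1.76 CPM without auxin, a log2 fold change of 1.52 (SE 0.28, adjusted p = 0.0022). Tbx4, which acts in hindlimb and lung, was at 4.28 and 7.90 CPM with auxin, against 2.18 and 3.32 CPM without auxin, and lost the call without auxin library 2 (0.157). Tbx5, of heart and forelimb, which passed the filter in the libraries with auxin alone, was at 1.55 and 1.604 CPM with auxin, against 0.0702 and 0.678 CPM without auxin, and lost it without no-auxin library 1 (0.123) and in DESeq2 (0.0840). T, the mesoderm factor brachyury, was at 14.2 and 11.2 CPM with auxin, against 8.78 and 8.75 CPM without auxin, and lost it without auxin library 1 (0.163) and in DESeq2 (0.121). So Tbx15 was the one whose call held without each library. In all, 6 of 17 T-box genes had a member, and of the 6 tested without one, 2 rose and 2 fell.

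GATA factors had a member at 3 of 6 genes, and both tested ones rose. Gata2, a blood and trophoblast regulator, was at 30.7 and 52.2 CPM with auxin, against 10.9 and 13.1 CPM without auxin. It rose by 1.80 (SE 0.21, adjusted p = 0.00017 in edgeR). Its 664 bp peak (chr6:88194594-88195257) was centred 1034.5 bp into the gene, outside the CpG-dense stretch printed above. Gata3, of trophoblast and T cells, was at 15.0 and 17.7 CPM with auxin, against 6.67 and 8.48 CPM without auxin, and rose by 1.11 (SE 0.15, adjusted p = 0.00046). Gata5, a heart and gut regulator, had no read in any library and 2 members, 1 of them over its 5′ end. Of these genes and Cdx2, the trophectoderm marker list described above holds Cdx2 alone.

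Pax and forkhead factors were marked and nearly silent. Pax genes, which act in eye, kidney, muscle and neural tube, had a member at 6 of 9, the largest share of any list here, and none of the 6 passed the filter. Pax6, the eye and forebrain regulator, had 0.369 and 0.475 CPM with auxin, against 0.140 and 0.271 CPM without auxin. Forkhead genes had a member at 10 of 28, and 5 of the 10 had no read in any library. Foxl1 had a 4037 bp peak over its 5′ end (chr8:121125868-121129904, fold enrichment 4.83) and no read. Foxq1, the only one tested, had 0.811 and 1.01 CPM with auxin, against 0.843 and 0.610 CPM without auxin.

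Sox, bHLH and zinc finger factors with a member had 9 tested genes, with 1 higher and 1 lower, against 27.5% called either way over all tested genes. Of 5 Sox genes with a member (of 19), 2 were tested and 0 passed in edgeR, at an unadjusted p under 0.05 or in DESeq2. Sox6, a gene of cartilage, muscle and neurons, whose promoter lay under its 1114 bp peak, was at 2.21 and 2.08 CPM with auxin, against 2.53 and 2.92 CPM without auxin (adjusted p = 0.34 in edgeR). Of 14 bHLH genes with a member (of 49), 4 were tested, and Tcf15, a somite gene also known from the exit from naive pluripotency, fell by 0.69 (SE 0.15, adjusted p = 0.0052). It was at 7.45 and 8.20 CPM with auxin, against 13.8 and 11.7 CPM without auxin. Of 10 zinc finger genes with a member (of 34), 3 were tested, and Prdm16, a regulator of brown fat and neural progenitors, rose by 0.89 (SE 0.13, adjusted p = 0.00058). It was at 15.0 and 16.2 CPM with auxin, against 8.36 and 8.48 CPM without auxin. The calls of Tcf15 and Prdm16 held without each library.

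Among signalling genes, Wnt ligands stood out by the number marked. A member lay at 10 of the 19, against 5 of 31 Wnt receptors and secreted modulators. Wnt3, which the primitive streak needs, was at 3.39 and 4.40 CPM with auxin, against 1.05 and 2.58 CPM without auxin, and rose by 1.10. It lost the call without auxin library 2 (0.0742), without no-auxin library 1 (0.186) and in DESeq2 (0.112). Wnt11 had 5.83 and 9.68 CPM with auxin, against 4.71 and 5.29 CPM without auxin (adjusted p = 0.058 in edgeR). Wnt3a, a ligand of paraxial mesoderm, had 0.664 and 0.832 CPM with auxin, against 1.83 and 1.22 CPM without auxin, the opposite direction, at 0.072. A member lay at 5.43% of all placed genes. The other pathways had one at 2 of 30 BMP, TGF-beta and Nodal ligands (6.67%), 2 of 15 BMP and Nodal antagonists (13.33%), 2 of 13 hedgehog genes (15.4%), 2 of 12 Notch genes (16.7%) and 2 of 22 FGF ligands (9.09%). There were 0 calls in edgeR among the 3 of these that were tested (0 at an unadjusted p under 0.05 and 0 in DESeq2). Both hedgehog ligands with a member, Ihh and Dhh, were below 1.2 CPM in every library.

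Collagen and potassium channel genes had a member in a share close to that of homeobox genes. Collagen genes had a member at 17 of 41, with 9 tested and 2 higher, beside 13.0% higher over all tested genes. Col2a1, the main cartilage collagen, had 3 members and was at 9.88 and 10.4 CPM with auxin, against 2.25 and 3.19 CPM without auxin. It rose by 1.89 (SE 0.20, adjusted p = 7.2e-05 in edgeR) and held the call without each library, as did Col9a2. Col1a1, the collagen of bone and fibroblasts, had 3.17 and 3.03 CPM with auxin, against 2.25 and 2.102 CPM without auxin (adjusted p = 0.14). Voltage-gated potassium channels had a member at 14 of 35 genes, with 13 of the 14 under 1 CPM and 0 calls among the 3 tested in edgeR, at an unadjusted p under 0.05 or in DESeq2. Neurotransmitter receptors had one at 23 of 70. Grm4, a metabotropic glutamate receptor, was at 9.07 and 6.36 CPM with auxin, against 3.16 and 2.31 CPM without auxin, and rose by 1.48 (SE 0.24, adjusted p = 0.0012). Axon guidance genes had one at 7 of 47, and Slit1, a repellent of growing axons, rose by 1.599 with an adjusted p of 0.0571 in DESeq2. Slit1 was the 1 called of 3 tested, and of the 32 tested axon guidance genes without a member 9 rose and 5 fell (edgeR).

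Housekeeping, chromatin and pluripotency lists had a member at 0 or 1 gene each, which for lists this short, the ribosomal one apart, is near the 5.43% of all placed genes. None of 76 ribosomal protein genes, 11 PRC2 genes or 10 cell cycle inhibitor genes had one. Among 22 PRC1 genes (4.55%) the one with a member was Cbx8, whose protein reads H3K27me3. Its peak (chr11:119041811-119042786) was centred at -1329.5 bp, upstream of the 5′ end. Cbx8 was at 6.41 and 5.46 CPM with auxin, against 2.88 and 2.85 CPM without auxin, and rose by 1.04 (SE 0.21, adjusted p = 0.0036 in edgeR). Of 24 pluripotency genes, Esrrb alone had a member (4.17%). Imprinted genes had 2 of 27, Dlk1 and Magel2, and germline genes 4 of 26, with 0 calls among the 4 tested in edgeR, at an unadjusted p under 0.05 or in DESeq2.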

How the data were processed

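RNA counts were deposited as raw counts per gene name; per the file headers the authors used featureCounts 1.6.3 on exons, reverse strand (mm10). The submitters' processing notes list STAR 2.6.1d, Bowtie2 2.4.1, MACS2 2.1.1, mm10 and dm6. Both deposited peak lists come from 1 sample each, without pooling, and hold per peak a score, a fold enrichment and a −log10 p and −log10 q, as the authors' caller wrote them. For peak controls and cutoffs, the sources used here are silent, and read depth of the chromatin samples is unknown. Counts used strand, and reads of near-identical copies were not resolved.

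A peak was a member at an overlap of at least 1 bp with CUT&RUN and with the region within 1 kb of a 5′ end, the gene's first base in the count table. Counts were tested in edgeR 4.0.16 (R 4.3.3) with TMM factors, the default filter, a two-sided quasi-likelihood test, Benjamini-Hochberg adjustment over 13522 genes and a threshold of 0.05, auxin against no auxin, without a block. DESeq2 1.42.0 was an alternative. Standard errors divide the absolute log2 fold change by √F. Scripts were tested on simulated data. No label says whether replicates were separate cultures, so p-values measure only a spread among libraries that may be technical. CPM are counts over TMM-scaled library sizes.

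Named peaks were the 5 highest and 5 widest, the 5 highest in CUT&RUN, the 3 with most genes and the edge, of which 1 is not reported here. Named genes were the 10 largest rises and falls with non-overlapping libraries, the 5 highest levels per kb and up to 4 per list by p, then by fold. Members and lists were chosen with earlier results of these data known. Promoter and microRNA sequences are from RefSeq (GRCm38.p6). None of the named Cd83, Nxph4, Foxq1 and Tbx15 is printed.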

Additional observations from a re-analysis of the deposited data

How the results depend on the processing

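The number of members (2052) and of their genes (1791) rests on the peak cutoffs and the window. With a −log10 q of at least 2 in ChIP-seq there were 1029 members at 968 genes. Of 272 tested there, 45 rose (16.5%) and 13 fell (4.78%) with auxin. With that limit in CUT&RUN there were 986 members at 854 genes. Of 230 tested there, 42 rose (18.3%) and 8 fell (3.48%). A window of 500 bp left 1266 members, with 57 rises and 10 falls, and one of 2 kb gave 3347 members, with 143 rises. The median CpG observed over expected ratio, 0.51 as reported, was 0.46 at 500 bp and 0.56 at the stricter ChIP-seq limit. Asking CUT&RUN to cover 50% of the peak left 1567 members, with 69 rises and 15 falls. The median log2 fold change of the genes stayed above 0 under every peak alternative run, between 0.28 and 0.34.

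Among tests, DESeq2 called 39 rises and 13 falls at members and 877 rises over all genes. A fit with the replicate number as a block called 146 rises and 33 falls at members and 2972 rises and 3177 falls over all genes. The same-numbered libraries deviated together with a correlation of 0.38 over 2 pairs, which is too few to show pairing, and the labels do not say that a number marks a shared batch. With every gene of at least 1 read tested, the median was 0.37 over 1218 genes at members and 0.03 over all genes. The part of the added low genes in this was not tested. Over the members' genes that passed the filter in both groups, an alternative chosen after seeing the data, 67 rose and 19 fell, and the median was 0.21 (also 0.21 in the lowest bin of level, against 0.36 there with all tested genes). With 1 library left out at a time, rises ranged from 61 to 110 and falls from 16 to 21 at members, the median from 0.21 to 0.45, and the calls over all genes from 1225 to 1705 rises and from 1257 to 1914 falls. Of the 93 rises, 58 to 83 were called again, and of the 20 falls 16 to 18. RLE size factors kept all 93 and 20. For the 79 named genes with a test, 531 of 608 values under the alternatives kept their side of the threshold, 38 lost it, 39 gained it and none changed sign on a called value. Alternatives that gave no adjusted p for a gene are not in that count. Among them is DESeq2 for Pdlim4, Sez6l, Slc6a17, Cntnap1, 9530082P21Rik, 4933431E20Rik, 6430571L13Rik and Nxph4, which were called in edgeR. The chromatin lists have no replicate and no known depth, so no error can be given for a peak.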
